A study of Mus musculus with 4 samples.

Results

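The genes described here are 10 transcripts widely used to mark macrophages, taken by name from the count table (C1qa, C1qb, C1qc, Adgre1, Mrc1, Cd68, Cd163, Lyz2, Trem2 and Apoe). They are 10 of its 55228 genes, and all 10 had reads in all 4 libraries and passed the filter on low counts. Tissue macrophages clear dead cells, matrix and lipid, and in a growing skeleton they sit beside osteoclasts, the bone-resorbing cells that arise from the same myeloid lineage. The C1q genes encode the chains of the complement recognition protein that tags debris for uptake, and in most tissues macrophages are their main source. Adgre1, Mrc1, Cd163 and Trem2 encode surface receptors, Cd68 a lysosomal membrane glycoprotein, Lyz2 the antibacterial enzyme lysozyme and Apoe a lipid-carrying apolipoprotein that many non-myeloid cells also make.

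RNA came from cells of the rib cartilage of C57BL/6 mouse embryos at E17.5, with 2 libraries from embryos labelled Trim28 KO and 2 from embryos labelled WT. TRIM28 is a corepressor that silences genes through heterochromatin. The labels give neither the allele nor any Cre driver of the knockout, so whether the macrophages themselves lacked Trim28 is not known here, nor is it stated that the 2 libraries of each genotype are different embryos. The p-values therefore rest on the spread among 4 libraries, part of which may be technical. Total counts ran from 18616896 to 20082123, and levels are given as CPM, the usual scaling of counts to the depth of each library. Trim28 stood at 51.1 and 54.5 CPM in Trim28 KO and at 225 and 186 CPM in WT, which fits the labels. Col2a1, the collagen that defines cartilage, had 58700 and 74388 CPM in Trim28 KO and 79631 and 55512 CPM in WT and was not called (log2 fold change of -0.02 ± 0.31, SE).

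The macrophage marker genes were split. The 3 C1q genes, Trem2, Apoe, Adgre1 and Mrc1 rose in Trim28 KO, by 2.09- to 4.58-fold, while Cd68, Lyz2 and Cd163 did not pass the test. That made 7 of 10 higher and 0 lower, where 8.64% of the 16639 genes tested were called higher, 8.77% lower and 17.4% in either direction (edgeR's quasi-likelihood test, Benjamini-Hochberg adjusted p under 0.05). Both Trim28 KO libraries were above both WT libraries for the same 7 genes (28.3% of all genes tested) and below them for 0 (29.7%). The median log2 fold change of the 10 was 1.45, beside -0.02 over all genes tested. Together the 10 genes held 0.0770% and 0.0444% of all counts in Trim28 KO 1 and 2, and 0.0194% and 0.0214% in WT 1 and 2. In RNA pooled over the cells of a sample, more macrophages, more of these transcripts per macrophage and more of them from other cells cannot be told apart.

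**Figure D1:**
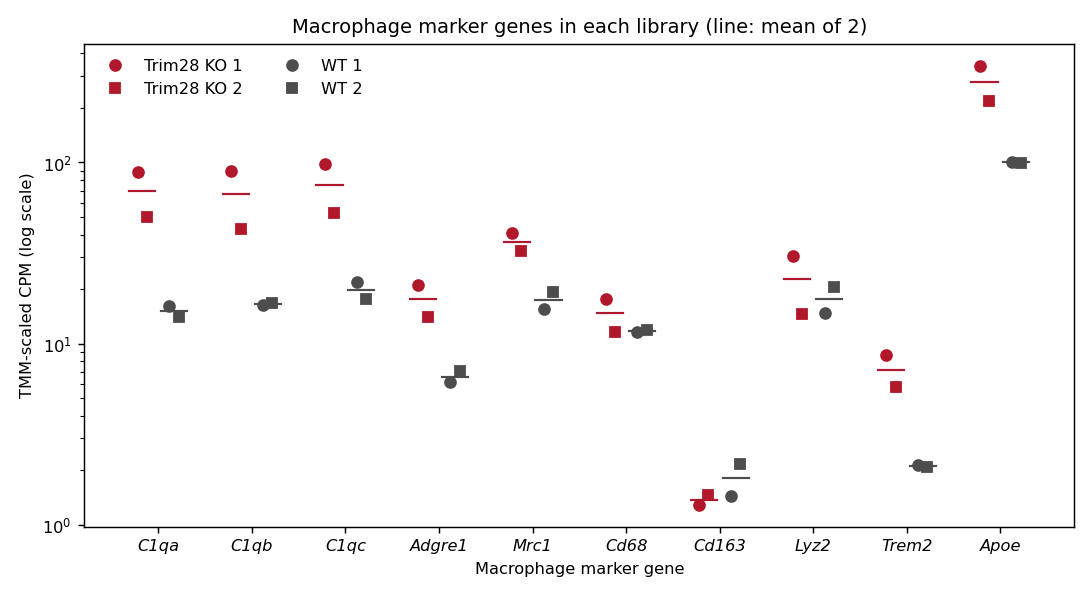
TMM-scaled CPM (log axis) of the 10 macrophage marker genes, with 1 point per library and a line at the mean of each genotype. For the 7 genes that rose, both Trim28 KO libraries lie above both WT libraries, and for Cd68, Cd163 and Lyz2 the genotypes overlap.

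C1qa, C1qb and C1qc lie side by side on the minus strand of chromosome 4 (GRCm38), within 18675 bases from 136880129 to 136898803, in the order C1qb, C1qc, C1qa. Each encodes 1 of the chains that assemble into C1q. C1qa had 88.2 and 50.2 CPM in Trim28 KO 1 and 2, against 16.1 and 14.1 CPM in WT 1 and 2. C1qb had 90.2 and 43.0 CPM in Trim28 KO, against 16.2 and 16.7 CPM in WT. C1qc had 98.1 and 52.6 CPM in Trim28 KO, against 21.99 and 17.53 CPM in WT. All 3 were highest in Trim28 KO 1, lower in Trim28 KO 2 and lowest in the WT libraries, with no overlap between the genotypes. C1qa rose 4.58-fold (log2 fold change of 2.19 ± 0.25, 95% interval 1.67 to 2.72, adjusted p = 1.45e-05). C1qb rose 4.04-fold (2.02 ± 0.34, 1.21 to 2.82, adjusted p = 0.00665), and C1qc 3.81-fold (1.93 ± 0.28, 1.31 to 2.55, adjusted p = 7.58e-04). Scaled per kilobase of exon, C1qa made up 38.8% and 42.0% of the C1q signal in Trim28 KO and 37.1% and 35.7% in WT. C1qb made up 37.9% and 34.3% in Trim28 KO and 35.7% and 40.4% in WT, and C1qc 23.3% and 23.7% in Trim28 KO and 27.2% and 23.9% in WT. The genotypes overlapped for the C1qb share, while the C1qa share was a little higher and the C1qc share a little lower in both Trim28 KO libraries. The 3 genes summed to 276 and 146 CPM in Trim28 KO and 54.4 and 48.3 CPM in WT.

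The regions around the starts of C1qb, C1qc, Trem2 and Lyz2 are shown because the C1q pair lies side by side and rose together, Trem2 rose from another chromosome, and Lyz2 did not pass the test. They are RefSeq windows on GRCm38.p6, 250 bases before to 50 after the gene start, 5' to 3' on the gene's own strand. C1qb is at chr4:136886151-136886450 (minus), C1qc at chr4:136892865-136893164 (minus), Trem2 at chr17:48346151-48346450 (plus) and Lyz2 at chr10:117282223-117282522 (minus). Capitals mark GAGGAA or its reverse complement TTCCTC, the PU box bound by the myeloid factor PU.1, the product of Spi1.
C1qb: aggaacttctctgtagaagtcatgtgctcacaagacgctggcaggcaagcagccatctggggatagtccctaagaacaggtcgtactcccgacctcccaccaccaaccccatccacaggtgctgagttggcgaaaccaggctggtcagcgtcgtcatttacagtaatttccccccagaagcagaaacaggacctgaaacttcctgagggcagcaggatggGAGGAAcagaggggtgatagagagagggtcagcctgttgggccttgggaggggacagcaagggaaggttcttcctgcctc
C1qc: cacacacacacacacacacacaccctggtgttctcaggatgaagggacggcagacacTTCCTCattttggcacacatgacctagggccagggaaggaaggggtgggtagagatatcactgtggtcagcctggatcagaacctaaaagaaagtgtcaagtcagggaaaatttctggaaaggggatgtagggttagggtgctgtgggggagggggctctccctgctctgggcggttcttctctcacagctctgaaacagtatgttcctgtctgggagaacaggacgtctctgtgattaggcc
Trem2: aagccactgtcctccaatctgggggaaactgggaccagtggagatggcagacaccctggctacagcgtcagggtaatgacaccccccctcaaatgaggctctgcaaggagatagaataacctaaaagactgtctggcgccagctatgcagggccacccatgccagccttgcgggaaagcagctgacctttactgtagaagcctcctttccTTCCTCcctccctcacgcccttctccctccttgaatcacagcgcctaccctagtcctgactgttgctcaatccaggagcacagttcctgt
Lyz2: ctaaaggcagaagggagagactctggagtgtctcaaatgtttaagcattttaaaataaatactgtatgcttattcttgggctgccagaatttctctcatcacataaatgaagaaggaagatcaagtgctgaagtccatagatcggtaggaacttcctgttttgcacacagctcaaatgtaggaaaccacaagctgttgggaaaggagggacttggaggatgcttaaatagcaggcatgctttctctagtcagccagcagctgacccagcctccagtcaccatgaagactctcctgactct

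A PU box began 30 bases before the start of C1qb, 193 before that of C1qc and 40 before that of Trem2, and there was no match in the Lyz2 window. RefSeq windows were matched for 8 of the 10 genes, all but C1qa and Adgre1. Of the 8, Apoe (in 2 of its 3 windows), C1qb, C1qc, Cd68, Mrc1 and Trem2 held a match on either strand, and Cd163 and Lyz2 did not. Among all 32851 windows of this length, 28.3% held one, and of the windows of genes higher in Trim28 KO, 27.5%. A match describes letters only. Cd68, which was not called, held 2. Spi1 itself had 17.8 and 10.8 CPM in Trim28 KO and 16.5 and 9.04 CPM in WT, and was not called (0.16 ± 0.33, 95% interval -0.59 to 0.91, adjusted p = 0.791).

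Trem2 encodes a lipid-sensing receptor of macrophages, microglia and osteoclast precursors (chromosome 17, 48346401 to 48354147, plus strand). It had 8.60 and 5.77 CPM in Trim28 KO, against 2.12 and 2.07 CPM in WT. Every Trim28 KO library was above every WT library, and Trem2 rose 3.42-fold (1.77 ± 0.30, 1.15 to 2.40, adjusted p = 1.78e-04). These values rest on 167 and 115 reads in Trim28 KO and 40 and 41 reads in WT. Tyrobp, the adaptor through which TREM2 signals, had 19.4 and 9.38 CPM in Trim28 KO and 9.72 and 9.04 CPM in WT, and was not called (0.62 ± 0.29, adjusted p = 0.184). It was called without a filter on low counts (adjusted p = 0.0374) and without Trim28 KO 2 (adjusted p = 0.0120).

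Apoe was the most abundant of the 10 (chromosome 7, 19696109 to 19699188, minus strand). It had 341 and 218 CPM in Trim28 KO, against 101 and 99.6 CPM in WT. The WT libraries were nearly equal, and both Trim28 KO libraries were well above them. Apoe rose 2.79-fold (1.48 ± 0.22, 1.02 to 1.94, adjusted p = 4.71e-05). Set against C1q in the same library, there were 1.23 and 1.49 Apoe reads per C1q read in Trim28 KO and 1.86 and 2.06 in WT. Of 14 tested genes of apolipoprotein E and cholesterol handling, 6 rose and 1 fell, with a median log2 fold change of 0.50, and the rises included those of the lipoprotein receptors Lrp8 (1.48 ± 0.20) and Vldlr (1.05 ± 0.19). Without Trim28 KO 1, 3 of these genes rose and 0 fell. Apoc1, which neighbours Apoe in the genome and is also made by macrophages, had too few reads to be tested, and Apoc2 had none.

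Adgre1 encodes an adhesion receptor that is the classical surface antigen of mouse macrophages (chromosome 17, 57358691 to 57483527, plus strand). Its level was 21.01 and 14.1 CPM in Trim28 KO, against 6.11 and 7.02 CPM in WT. Adgre1 rose 2.67-fold (1.42 ± 0.23, 0.94 to 1.89, adjusted p = 1.15e-04), with no overlap between the genotypes. Mrc1, the mannose receptor of resident macrophages and of some sinusoidal and lymphatic endothelium (chromosome 2, 14229392 to 14332057, plus strand), had 40.8 and 32.4 CPM in Trim28 KO, against 15.6 and 19.3 CPM in WT. It had the smallest rise of the 7 (2.09-fold, 1.07 ± 0.20, 0.65 to 1.48, adjusted p = 5.03e-04), again with no overlap. In 11 tested endothelial genes 1 rose and 1 fell, and the list summed to 476 and 533 CPM in Trim28 KO and 535 and 484 CPM in WT. Prox1, the lymphatic transcription factor, was the gene that fell (-1.73 ± 0.38, adjusted p = 0.00245), and it lost that call when Trim28 KO 2 was left out (0.0561).

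The 3 remaining genes did not differ beyond the spread between libraries. Cd68 (chromosome 11, 69664213 to 69666153, minus strand) had 17.7 and 11.6 CPM in Trim28 KO and 11.5 and 11.9 CPM in WT, so that Trim28 KO 1 alone stood above the rest. Its log2 fold change was 0.33 ± 0.22 (95% interval -0.13 to 0.79, adjusted p = 0.347), and 0.00 without Trim28 KO 1. Lyz2 (chromosome 10, 117277331 to 117282321, minus strand) had 30.6 and 14.6 CPM in Trim28 KO and 14.8 and 20.5 CPM in WT, with the highest and the lowest value in the same genotype. Its log2 fold change of 0.36 ± 0.37 (-0.53 to 1.25, adjusted p = 0.587) turned to -0.27 without Trim28 KO 1. Cd163, the haemoglobin scavenger receptor (chromosome 6, 124304656 to 124330527, plus strand), was scarce, with 1.29 and 1.46 CPM in Trim28 KO and 1.43 and 2.17 CPM in WT, from 25 and 29 reads in Trim28 KO and 27 and 43 in WT. It was not called (-0.40 ± 0.41, -1.24 to 0.45, adjusted p = 0.564), and its interval still allows a fall to 0.423-fold or a rise to 1.37-fold. A p-value over the threshold does not show that these genes were equal in the genotypes.

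Per kilobase of exon the members spanned a wide range of levels. In Trim28 KO the order was Apoe (160 and 102 CPM per kilobase), C1qa (84.8 and 48.3), C1qb (82.9 and 39.5), C1qc (50.8 and 27.3), Lyz2 (23.3 and 11.1), Cd68 (14.1 and 9.26), Mrc1 (6.401 and 5.08), Adgre1 (6.49 and 4.34), Trem2 (1.74 and 1.17) and Cd163 (0.236 and 0.266). Neighbours whose libraries overlapped were C1qa with C1qb, C1qb with C1qc, Lyz2 with Cd68, and Mrc1 with Adgre1. Within each Trim28 KO library, though, C1qa was above C1qb, C1qb above C1qc and Lyz2 above Cd68. Only Mrc1 and Adgre1 changed places. The WT order began with Apoe (47.2 and 46.6 CPM per kilobase), C1qb (14.9 and 15.3), C1qa (15.5 and 13.5), Lyz2 (11.2 and 15.6), C1qc (11.4 and 9.08) and Cd68 (9.17 and 9.44). Below them came Mrc1 (2.44 and 3.04), Adgre1 (1.89 and 2.17), Trem2 (0.429 and 0.419) and Cd163 (0.263 and 0.398). Here C1qb and C1qa, C1qa and Lyz2, Lyz2 and C1qc, and C1qc and Cd68 overlapped, and each of these pairs changed places between the WT libraries. The lengths join all annotated exons of a gene, which for Trem2 come to 4946 bases, so a gene with long rare transcripts has its level understated.

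Trim28 KO 1 was above Trim28 KO 2 for 9 of the 10 genes, by 1.26-fold (Mrc1) to 2.11-fold (Lyz2), and Cd163 was the exception. The WT libraries were closer together than the Trim28 KO libraries for the same 9 genes and further apart for Cd163, with ratios of WT 1 over WT 2 from 0.660 (Cd163) to 1.25 (C1qc). All 7 rises remained called without any 1 of the 4 libraries. Leaving out Trim28 KO 1 gave the smallest log2 fold change of each: C1qa 1.74, C1qb 1.39, C1qc 1.42, Trem2 1.46, Apoe 1.12, Adgre1 1.10 and Mrc1 0.90, all at an adjusted p of 0.0300 or less. Tested against a minimum change of 2-fold, only C1qa (adjusted p = 0.00149) and C1qc (adjusted p = 0.0340) were called.

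**Figure D2:**
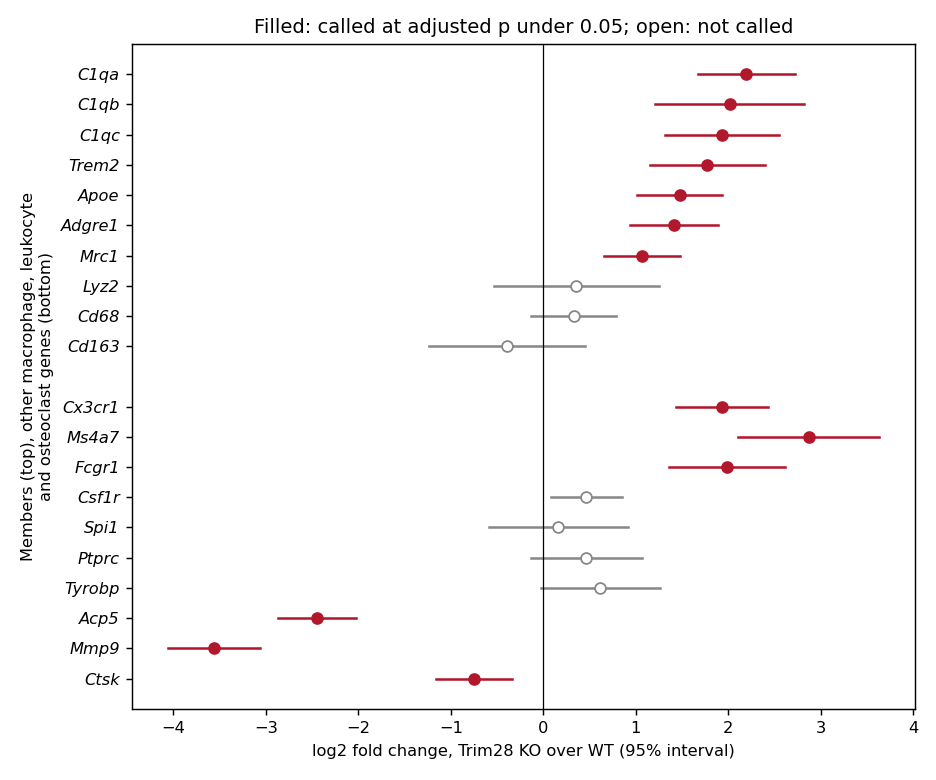
Log2 fold change of Trim28 KO over WT with its 95% interval for the 10 macrophage marker genes (top) and for 10 other genes of macrophages, leukocytes and osteoclasts (bottom), filled where called at an adjusted p under 0.05. C1qa (2.19) is highest of the marker genes and Cd163 (-0.40) lowest, Csf1r, Spi1, Ptprc and Tyrobp are open, and the osteoclast genes Acp5, Mmp9 and Ctsk lie below 0.

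Other genes of macrophages were split in the same manner. Of 20 tested, 12 rose and 2 fell, with a median log2 fold change of 1.13. The fractalkine receptor Cx3cr1 had 17.4 and 12.9 CPM in Trim28 KO and 3.61 and 4.29 CPM in WT (1.94 ± 0.24, adjusted p = 3.54e-06). Ms4a7, a membrane protein of tissue macrophages, had 9.27 and 4.82 CPM in Trim28 KO and 0.956 and 0.960 CPM in WT (2.87 ± 0.37, adjusted p = 6.78e-06). The immunoglobulin receptor Fcgr1 (1.99 ± 0.30), the perforin-like Mpeg1 (1.32 ± 0.24) and Aif1, which encodes an actin-binding protein of macrophages (1.99 ± 0.37), also rose, but Aif1 lost its call when Trim28 KO 1 was left out (adjusted p = 0.0609). Csf1r, the growth factor receptor on which most macrophages and osteoclasts depend, had 40.6 and 36.0 CPM in Trim28 KO and 28.4 and 27.1 CPM in WT and was not called (0.46 ± 0.19, adjusted p = 0.0896). The transcription factor gene Maf fell (-1.16 ± 0.22), at 69.5 and 85.6 CPM in Trim28 KO and 207 and 140 CPM in WT. Without Trim28 KO 1, 5 of these genes rose and 2 fell. Marco, Timd4 and Vsig4, receptors of particular tissue macrophages, had too few reads to be tested.

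The amount of C1q transcript relative to Csf1r, Cd68, Adgre1 and Mrc1 of the same library was also higher in Trim28 KO. There were 6.80 and 4.05 C1q reads (C1qa, C1qb and C1qc together) per Csf1r read in Trim28 KO, and 1.91 and 1.78 in WT. Per Cd68 read there were 15.6 and 12.5 in Trim28 KO and 4.72 and 4.07 in WT. The contrast was smaller per Adgre1 read (13.2 and 10.4 in Trim28 KO, 8.90 and 6.88 in WT) and per Mrc1 read (6.78 and 4.51 in Trim28 KO, 3.49 and 2.50 in WT). In all 4 ratios both Trim28 KO libraries were above both WT libraries, and with 2 libraries a genotype the smallest p that an exact two-sided permutation test can give is 0.333. The contrast depends on the gene chosen, as these 4 had smaller log2 fold changes than the C1q genes (1.93 to 2.19). Ms4a7 had a larger one (2.87), and Cx3cr1 (1.94), Aif1 (1.99) and Fcgr1 (1.99) had similar ones. Osteoclasts also express Csf1r and Cd68, and the part of osteoclasts in these ratios was not tested. For Trem2 the genotypes overlapped, at 3.11 and 3.96 reads per 100 C1q reads in Trim28 KO and 3.91 and 4.29 in WT.

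**Figure D3:**
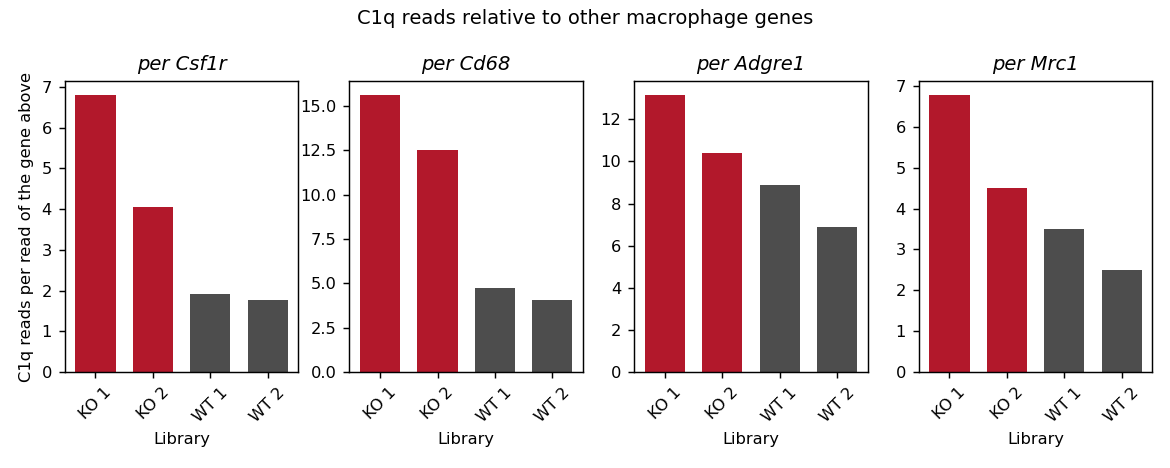
Reads of C1qa, C1qb and C1qc together for each read of Csf1r, Cd68, Adgre1 or Mrc1 (panels, each with its own axis from 0), with 1 bar per library. Both Trim28 KO bars are taller than both WT bars in each panel, for instance per Csf1r read (6.80 and 4.05 in Trim28 KO against 1.91 and 1.78 in WT).

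Among the other complement genes the direction differed from C1q. Of 15 tested, 1 rose and 4 fell (median -0.18). C1ra and C1s1, the proteases that C1q carries, had log2 fold changes of -0.12 ± 0.22 and -0.26 ± 0.25 and were not called. C4b, their first substrate, had 3.71 and 7.88 CPM in Trim28 KO and 24.0 and 24.6 CPM in WT and fell (-2.07 ± 0.29, adjusted p = 2.14e-04). The inhibitors Cd55 (-1.32 ± 0.28) and Serping1 (-0.90 ± 0.22) fell too, although Serping1 lost its call without WT 2 (adjusted p = 0.0754) or Trim28 KO 2 (0.110). Without WT 2, 2 complement genes fell. The gene that rose was the myeloid receptor C3ar1 (1.61 ± 0.32, adjusted p = 0.00118), a call that did not hold once Trim28 KO 1 was left out (adjusted p = 0.0852). C3 was not called (0.66 ± 0.28).

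Of 11 tested genes of TREM2 signalling and of lipid-laden macrophages, 2 rose and 2 fell (median -0.03). Gpnmb, a lysosomal glycoprotein, had 129 and 125 CPM in Trim28 KO and 7.12 and 7.83 CPM in WT (4.09 ± 0.22), and Lgals3, the lectin galectin-3, had 573 and 395 CPM in Trim28 KO and 173 and 169 CPM in WT (1.505 ± 0.220). The receptor kinase Axl (-0.82 ± 0.20) and the phospholipase Plcg2 (-0.85 ± 0.23) fell. Axl lost its call without Trim28 KO 1 (adjusted p = 0.159), and Plcg2 without WT 1 (0.204), Trim28 KO 1 (0.151) or Trim28 KO 2 (0.0608). Unlike C1q, Gpnmb was about equal in the 2 Trim28 KO libraries. Which cells made the Gpnmb and Lgals3 transcripts was not tested. Clec7a, Cst7, Hcst and Itgax had too few reads to be tested.

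Markers of related blood cells were measured in the same libraries. Osteoclast genes fell in 10 of 11 tested and rose in 0 (median -2.56), and summed to 290 and 310 CPM in Trim28 KO and 1168 and 986 CPM in WT. Acp5, the tartrate-resistant phosphatase, had 7.78 and 6.92 CPM in Trim28 KO and 40.1 and 40.1 CPM in WT (-2.45 ± 0.20), and Ctsk, the collagen-degrading cathepsin, 173 and 158 CPM in Trim28 KO and 279 and 278 CPM in WT (-0.75 ± 0.20, not called without Trim28 KO 1 or 2, adjusted p = 0.0619 and 0.0981). Osteoclasts also express Cd68, Csf1r, Spi1 and Tyrobp, and their part in the levels of these genes was not tested. The defining osteoclast receptor Calcr was near 0 in all libraries. Without Trim28 KO 2, 6 osteoclast genes fell.

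General leukocyte genes rose in 7 of 16 and fell in 0 (median 0.51), and summed to 206 and 136 CPM in Trim28 KO and 122 and 122 CPM in WT. Coro1a (1.22 ± 0.22) and Laptm5 (0.76 ± 0.21), an actin regulator and a lysosomal protein of blood cells, rose, whereas Ptprc, the pan-leukocyte phosphatase, had 5.05 and 4.27 CPM in Trim28 KO and 3.45 and 3.28 CPM in WT and was not called (0.47 ± 0.29, adjusted p = 0.303). Without Trim28 KO 1, 1 leukocyte gene rose, and Laptm5 was not called (adjusted p = 0.298). Neutrophil genes, which matter for Lyz2 because granulocytes also make lysozyme, summed to 4.79 and 3.61 CPM in Trim28 KO and 5.74 and 34.3 CPM in WT 1 and 2. Of 8 tested, 3 fell and 0 rose. The number of falls depended on which library of either genotype was left out. It also depended on the filter, with 10 falls unfiltered and 0 under the filter of 5 CPM in 2 libraries. Each such fit tested its own set of genes. Mpo and Prtn3 were among the genes that fell, and their log2 fold changes of -2.68 and -2.16 shrank to -1.47 and -1.81 without WT 2. S100a9, a calcium-binding protein of neutrophils, had 0.412 and 0.1004 CPM in Trim28 KO and 0.637 and 10.2 CPM in WT, and was not called. The part of neutrophils in the Lyz2 level of WT 2 was not tested. Lymphocyte genes (2 tested) and mast cell genes (5 tested) had no call in either direction, and summed to at most 3.38 and 11.0 CPM in any library. Red blood cell genes fell in 6 of 6 tested (median -2.03), at 75.7 and 82.0 CPM in Trim28 KO and 255 and 350 CPM in WT. Chondrocyte genes had 0 rises and 1 fall, of Cnmd (-0.99 ± 0.24, not called without Trim28 KO 1, adjusted p = 0.0591), among 10.

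**Figure D4:**
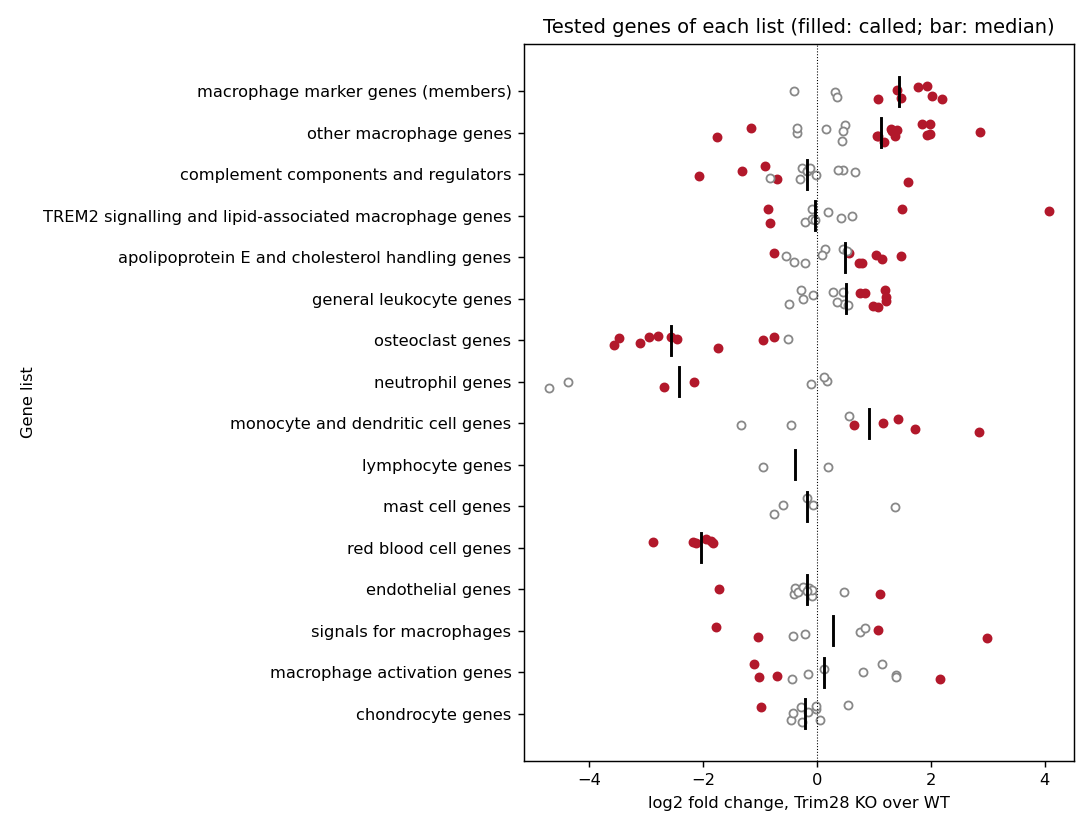
Log2 fold change of Trim28 KO over WT for the tested genes of each list, filled where called at an adjusted p under 0.05, with a bar at the list's median. Genes with no read in 1 genotype are counted in the median and not drawn. The macrophage marker genes (median 1.45) and other macrophage genes (1.13) lie mostly to the right, and osteoclast (-2.56) and red blood cell genes (-2.03) to the left.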

How the data were processed

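RNA-seq counts of 4 libraries of E17.5 rib cartilage cells were used. Per the file headers, the authors ran featureCounts 1.6.4 in paired-end mode on exons of GENCODE M23 (mm10), summed by gene name, and set no strand, multi-mapping or overlap option. The aligner is not given in the sources used here. The deposited counts are raw, and the deposited exon lengths were used to scale levels per kilobase. Exons of the 10 genes overlap no other gene in GENCODE M21 (GRCm38, the assembly of mm10), from which positions were taken.

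Of 55228 genes, 30326 had a count and 16639 passed edgeR's filterByExpr. The genotypes were tested with edgeR 4.0.16 (R 4.3.3), by its quasi-likelihood test with TMM factors, robust estimation and no covariate, with Benjamini-Hochberg adjustment over all genes tested. Calls were made at an adjusted p under 0.05, and "rose" and "fell" refer to called genes. CPM are TMM-scaled. A ± value after a log2 fold change is its standard error (its size over the square root of F, n = 2 per genotype), and intervals are 95%. A count of 3 was 0.150 to 0.159 CPM, for counting error only. Replicate libraries were further apart than sampling noise allows (chi-square per degree of freedom of 27.1 in Trim28 KO and 33.9 in WT). The steps were tested on simulated counts.

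The members, the 15 other lists and the tests were chosen with earlier results of these data known. Genes to name were all members, Trim28, 15 reference genes (Csf1r, Ptprc, Spi1, Tyrobp, Cx3cr1, Csf1, Il34, Acp5, Ctsk, S100a8, C1ra, C1s1, C4b, C3 and Col2a1), up to 6 genes per list with the smallest p-values, and 6 genes with a profile near that of C1q. The rule gave 110 genes, of which the text names a part (some are not reported here), and the genes outside it, which are those with too few reads to be tested and the genes beside C1q, Apoe and Cd68, were chosen after their values were seen. Alternatives were RLE factors, upper-quartile factors, scaling by library size only, all genes unfiltered, a filter of 5 CPM in 2 libraries, DESeq2 1.42.0, limma-voom (limma 3.58.1), a test against a log2 change of 1, a replicate block, and leaving out each library.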

Additional observations from a re-analysis of the deposited data

How the results depend on the processing

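The 7 rises among the macrophage marker genes were called under 12 of the 13 alternatives, with 0 falls under any. The exception was the test against a minimum change of 2-fold, which called 2 of them and, over all genes, 214 higher and 175 lower in place of 1438 and 1460. DESeq2 called 946 genes lower. With 1 library left out, from 702 to 1442 genes were higher and from 572 to 1406 lower, and the lowest counts came without Trim28 KO 1. The lone library of a genotype is then assumed to vary like the others. The filter of 5 CPM left Cd163 untested. No called gene named here changed sign. Scaling moved the median of all tested genes to between -0.04 and 0.04.

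Same-numbered libraries showed no shared shift (correlation of -0.095 between WT 1 minus WT 2 and Trim28 KO 1 minus Trim28 KO 2 over 16639 genes). The labels do not say whether a shared number marks a litter or batch, and this correlation cannot settle it. With the replicate number as a block, 1477 genes were higher and 1444 lower, and 7 macrophage marker genes were higher and 0 lower. With 2 libraries a genotype, the precision for scarce genes such as Cd163 is set by few reads.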

Other observations

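Signals and products tied to macrophages moved in both directions. Of 8 tested genes for signals that act on macrophages or osteoclasts, 2 rose and 2 fell. The chemokine Ccl12 had 5.92 and 2.36 CPM in Trim28 KO and 0.372 and 0.657 CPM in WT (2.99 ± 0.49, adjusted p = 3.44e-04), and Cx3cl1, the ligand of the receptor encoded by Cx3cr1, rose (1.07 ± 0.24), which did not hold without Trim28 KO 2 (0.0539). Tnfsf11, the osteoclast signal RANKL, had 2.27 and 3.46 CPM in Trim28 KO and 10.6 and 8.94 CPM in WT (-1.76 ± 0.27), and Cxcl12 fell (-1.03 ± 0.19). Both ligands of the receptor encoded by Csf1r were not called, Csf1 at 51.5 and 60.6 CPM in Trim28 KO and 63.4 and 65.9 CPM in WT (-0.20 ± 0.19) and Il34 at 0.978 and 1.405 CPM in Trim28 KO and 2.02 and 1.16 CPM in WT (-0.41 ± 0.44). Of 11 tested genes of macrophage activation, 1 rose (Ccl4, 2.17 ± 0.62, not called by DESeq2 or without WT 2 or Trim28 KO 1) and 3 fell, among them Ptgs2 (-1.09 ± 0.21) and Igf1 (-1.01 ± 0.19). Of 8 tested monocyte and dendritic cell genes, 5 rose and 0 fell, among them the antigen-presenting genes H2-Aa (2.86 ± 0.43) and H2-Ab1 (1.17 ± 0.22), and 2 rose without Trim28 KO 1.

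The 6 genes whose centred log2 CPM over the 4 libraries lay nearest to the mean profile of C1qa, C1qb and C1qc, among the 11606 genes that averaged 5 CPM or more, were Hspb8, Fcgr1, Dlg2, Mt1, Tmem144 and Rasl10b, at root mean square distances of 0.147 to 0.169. Among the macrophage marker genes the distance was 0.248 for Trem2, 0.277 for Apoe, 0.356 for Adgre1, 0.523 for Mrc1, 0.842 for Cd68, 0.866 for Lyz2 and 1.195 for Cd163. With 4 libraries, this measure mostly reflects the contrast of genotypes and the gap between the Trim28 KO libraries.

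The nearest tested protein-coding genes on either side of the C1q genes, looked up after the C1q values were seen, were Ephb2 (-0.42 ± 0.22, not called), 44141 bases from C1qb, and Epha8, 30616 bases from C1qa, which fell (-1.84 ± 0.54, adjusted p = 0.0187) from a low level (0.257 and 0.502 CPM in Trim28 KO, 1.75 and 1.01 CPM in WT). Beside Apoe, Tomm40 rose (0.64 ± 0.19, adjusted p = 0.0195), and Clptm1 on the other side was not called (0.34 ± 0.20). The genes on either side of Cd68, Eif4a1 and Mpdu1, were not called. Vav1, of the general leukocyte genes, lies 30660 bases from Adgre1 and rose (1.19 ± 0.30, adjusted p = 0.00672). Without Trim28 KO 1 its log2 fold change was 1.15 and it was not called. The gene on the other side of Adgre1 and those beside Mrc1, Cd163, Lyz2 and Trem2 were not called.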
